A study of Mus musculus with 2 samples.

Results

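The nuclear genes for subunits of the mitochondrial respiratory chain and of ATP synthase were described in mouse common myeloid progenitors, bone marrow cells whose progeny include myeloid white cells, platelet precursors and red cells. Members were chosen by symbol among nuclear protein-coding genes: Ndufa, Ndufb, Ndufc, Ndufs and Ndufv genes without the Ndufaf assembly factors, Uqcr and Atp5 genes, Cox4 to Cox8 genes, Sdha to Sdhd, and Cyc1. The rule found 86 genes of 21461, of which 36 belonged to complex I, 4 to complex II, 9 to complex III, 19 to complex IV and 16 to complex V. Cox7a2l and Atp5s were also taken in by their symbols and were kept apart as related proteins.

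The data were 2 total RNA libraries of 1 group, primary cells from the C57BL/6J strain (adult males, 5 to 6 weeks old), with no treatment or allele named in the labels. Ribosomal RNA was depleted and each library was made by the ScriptSeq method, starting from 100 ng, with stated size ranges of 200 to 1000 in replicate 1 and 187 to 1606 in replicate 2 (no unit given). Replicate 1 held 28158803 expected counts and replicate 2 held 84041054, a ratio of 2.98. Both libraries carried 1 donor label, so their spread may be partly technical, and with 1 group there was no comparison of conditions and no test. All 7 progenitor markers, among them Kit, Cd34 and Myb, lay at 1 TPM or more in both libraries, while 3 of 3 T and NK cell markers and 3 of 4 B cell markers had 0 counts in both. Of 6 red cell lineage markers, 4 lay at 1 TPM or more in both: Klf1 (16.6 and 15.8 TPM), Gata1 (9.73 and 11.4), Hba-a1 (6.39 and 4.02) and Hbb-bs (2.54 and 2.08). In RNA from many cells, fewer cells of a type and less RNA per cell cannot be told apart.

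The respiratory chain moves electrons from NADH, through complex I, and from succinate, through complex II, by way of coenzyme Q to complex III, and by cytochrome c to complex IV, where oxygen is reduced. Complexes I, III and IV pump protons across the inner mitochondrial membrane, and complex V, the ATP synthase, uses the gradient to make ATP. Mitochondrial DNA encodes the central subunits of complexes I, III, IV and V, and nuclear genes encode the others and all of complex II. Several complex IV subunits have paralogs whose expression is known from heart and skeletal muscle, lung or testis.

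Chain and synthase genes were read at high levels by TPM in both libraries. TPM (a transcript abundance corrected for length and relative to every entry of the deposited table) was at least 1 in both libraries for 79 of 86 genes, against 42.5% of all nuclear protein-coding genes. At least 10 TPM was reached by 71 genes and at least 100 TPM by 7, in both libraries. The 7 were Atp5b, Atp5a1, Atp5h, Atp5mpl, Uqcrb, Cox6c and Cox6b1. As a background for these levels, Ndufs8, at 10.4 and 10.3 TPM, lay at percentiles 84.8 and 82.9 of all nuclear protein-coding genes. Atp5mpl, at 114 and 101 TPM, lay at percentiles 98.9 and 98.6. The median over the 86 genes was 28.2 TPM in replicate 1 and 27.6 in replicate 2 (27.9 ± 0.467, SD, n = 2), while nuclear protein-coding genes at 1 TPM or more had medians of 6.71 and 7.77. Of the 86 genes, 62 lay in the top 10% of nuclear protein-coding genes in both libraries. Together they held 2.11% and 1.85% of the TPM of nuclear protein-coding genes, but 0.845% and 0.748% of their expected counts. The genes are short, so a share by counts is smaller than a share per length. Without length correction (CPM, counts scaled to the library total) their median was 45.2 and 38.8. Nuclear protein-coding genes at 1 TPM or more had 39.5 and 40.0 CPM, so the high level holds only per length.

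Complex V had the highest median over the full lists, 65.7 TPM in replicate 1 and 57.6 in replicate 2 (61.7 ± 5.76, n = 2). Complex III followed at 36.6 and 31.3 TPM (33.9 ± 3.74), complex II at 29.7 and 31.2 (30.5 ± 1.09) and complex I at 26.2 and 22.9 (24.6 ± 2.35). Complexes II and III were nearly level in replicate 2 and differed by less than the spread between libraries of complex III. Complex IV had the lowest median, 17.2 and 21.8 TPM (19.5 ± 3.27), but this list mixes general subunits with 8 tissue paralogs. Its 11 other genes had medians of 103 and 78.3 TPM (90.9 ± 17.8), above complex V in both libraries. Levels within a complex differed: the SD of log2 TPM over the 36 complex I genes was 1.16 and 1.17. This was less than over nuclear protein-coding genes at 1 TPM or more in both libraries (1.71 and 1.66).

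**Figure D1:**
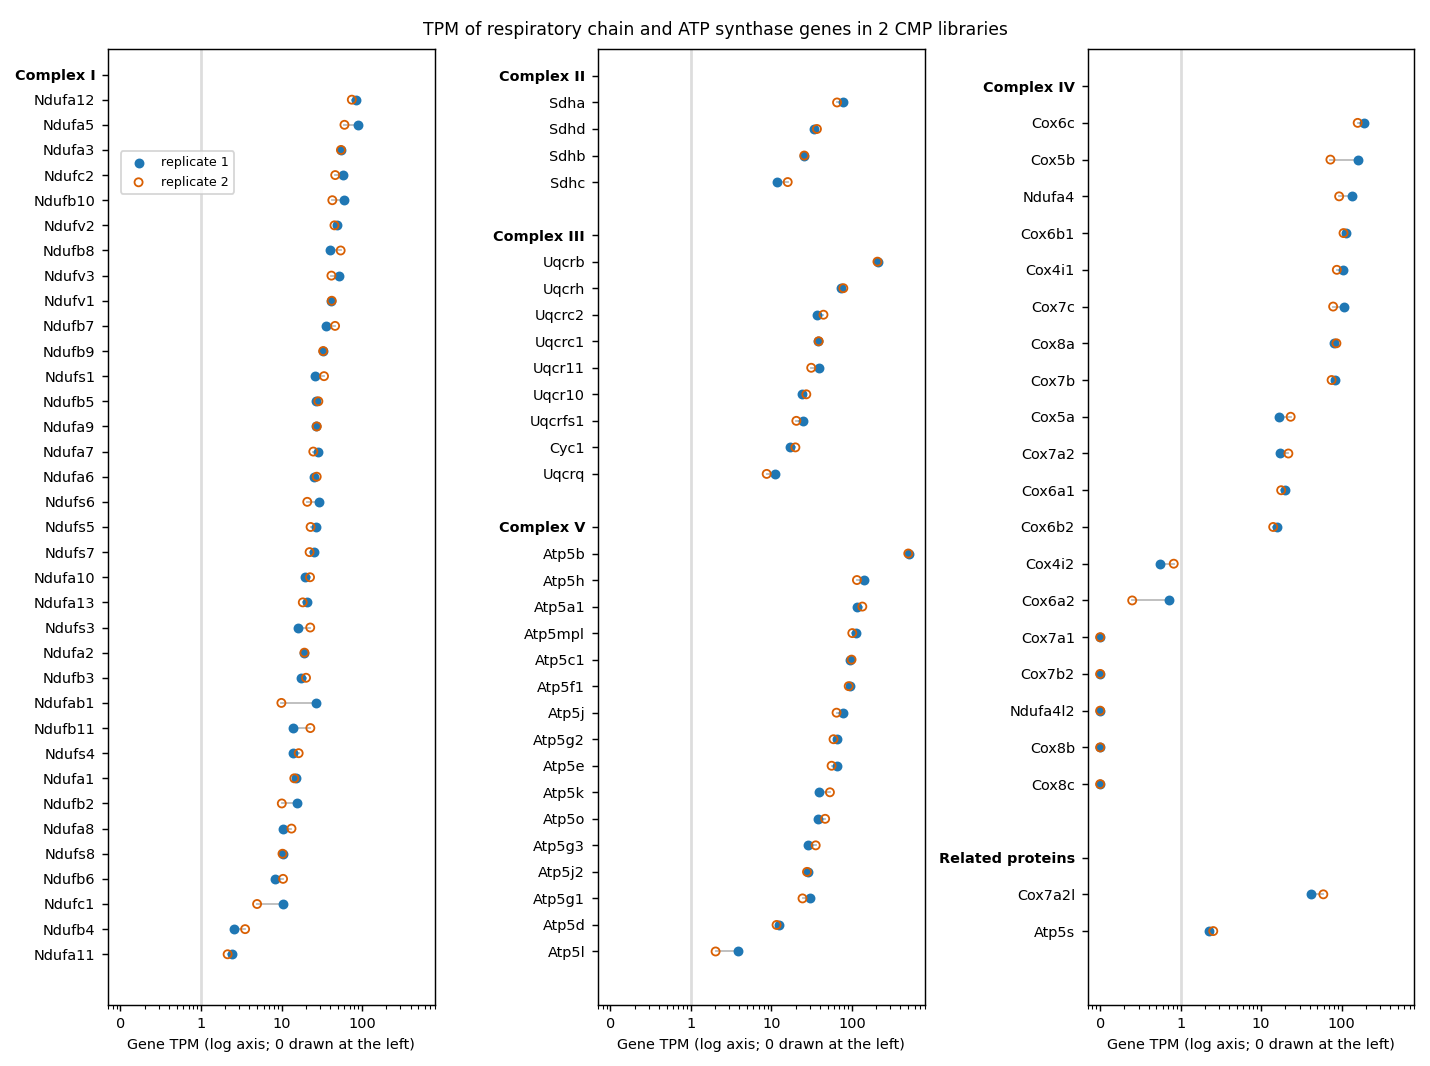
TPM of the members reported here (log axis, genes at 0 drawn at the left edge) by complex, with replicate 1 as filled and replicate 2 as open points. Atp5b stands highest near 500 TPM in both libraries, most complex I genes lie between 10 and 100 TPM, and 5 complex IV paralogs lie at 0.

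Many of these genes are known to share promoter motifs for NRF1 (nuclear respiratory factor 1), GABP (an ETS family factor, also called NRF2) and YY1, so promoter letters were read beside the levels. RefSeq promoter windows (GRCm38.p6, 250 bases before to 50 after the start) were matched for 69 of the 86 genes. The letters GCATGCGC for NRF1, on either strand, stood in a window of 10 of 69 genes (14.5%), against 3.05% of 27025 genes with a window and 3.93% of the protein-coding ones. GABP letters, CCGGAAG, stood in 16 (23.2%), against 9.93% and 12.9%. YY1 letters, AAGATGGC, stood in 10 (14.5%), against 3.19% and 3.57%. At least 1 of the 3 motifs was found for 30 of 69 genes (43.5%, against 14.9% of all and 18.7% of protein-coding genes). At least 2 were found for 6 (8.70%, against 1.24% of all and 1.71% of protein-coding genes), namely Atp5j, Atp5k, Atp5l, Cox6a1, Sdhb and Uqcr11. These are exact letter matches and not measured binding.

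**Figure D2:**
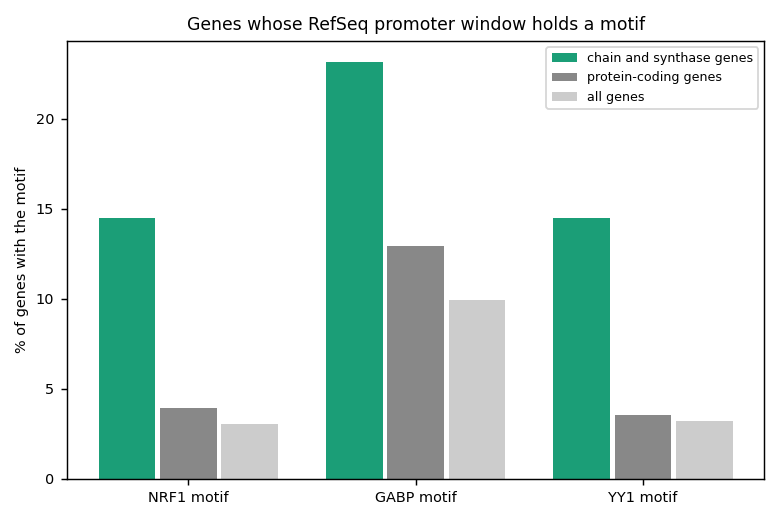
Percent of genes (bars from 0) whose RefSeq promoter window holds the letters of each motif, for the 69 chain and synthase genes with a window, all protein-coding genes and all genes. The 3 bars of the chain and synthase genes stand at 14.5%, 23.2% and 14.5%, each above the bars for protein-coding and for all genes.

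The stretches below, from RefSeq, show where the NRF1 letters lie before the RefSeq start, with the matched bases in capitals. In the 4 first named the letters overlap their own reverse complement, so that both strands match. They belong to a c ring gene (Atp5g2), a small ATP synthase subunit (Atp5k), the general form of cytochrome c oxidase subunit 6A (Cox6a1), a complex I membrane arm subunit (Ndufa11), the iron-sulfur subunit of complex II (Sdhb) and a further complex I subunit (Ndufa6).
Atp5g2, chr15:102671071-102671098, minus strand: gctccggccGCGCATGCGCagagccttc
Atp5k, chr5:108434431-108434458, minus strand: ttcactgcgGCGCATGCGCctttctggc
Cox6a1, chr5:115349102-115349129, minus strand: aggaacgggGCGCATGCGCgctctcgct
Ndufa11, chr17:56717693-56717720, plus strand: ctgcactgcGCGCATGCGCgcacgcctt
Sdhb, chr4:140961207-140961234, plus strand: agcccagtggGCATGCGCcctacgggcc
Ndufa6, chr15:82354357-82354416, minus strand: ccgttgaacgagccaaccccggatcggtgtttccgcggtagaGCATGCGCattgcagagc
Starts differ between annotations: in 5 of these 6 genes, Ndufa6 excepted, the region around the match overlapped an exon of a GENCODE M21 gene, and the stretch was kept short. These genes with the same letters spanned a wide range of levels, from Ndufa11 at 2.46 and 2.14 TPM to Atp5g2 at 65.9 and 59.2 TPM.

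GABP letters are shown for Atp5e, the epsilon subunit of the F1 part, Uqcr11, a small complex III subunit, and Sdhd, a membrane anchor of complex II. Atp5l, the synthase subunit g, holds NRF1 and GABP letters in 1 stretch. Atp5j, coupling factor 6, had the 1 YY1 match that lay wholly before the RefSeq start.
Atp5e, chr2:174464187-174464246, minus strand: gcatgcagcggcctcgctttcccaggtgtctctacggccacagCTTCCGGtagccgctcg
Uqcr11, chr10:80406871-80406930, minus strand: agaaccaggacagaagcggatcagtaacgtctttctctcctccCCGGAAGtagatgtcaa
Sdhd, chr9:50603879-50603905, minus strand: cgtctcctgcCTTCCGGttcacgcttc
Atp5l, chr9:44920938-44920992, minus strand: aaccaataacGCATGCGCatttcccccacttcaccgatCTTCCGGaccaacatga
Atp5j, chr16:84835047-84835074, minus strand: aagtgtaggaAAGATGGCggagtcttag
The Atp5j stretch lies inside the Atp5j gene of GENCODE M21 (chr16:84827866-84835625, GRCm38) and in an annotated exon, and the region around the Sdhd match also overlapped an exon. Restricted to the bases before the RefSeq start, NRF1 letters stood in 8 genes (11.6%, against 2.56% of all and 3.32% of protein-coding genes). GABP letters stood there in 12 (17.4%, against 7.83% and 10.2%). YY1 letters stood there in 1 of 69 (1.45%), near the 1.83% of all and 1.77% of protein-coding genes. The other 9 YY1 matches crossed or followed the RefSeq start, as in Ndufa3, Ndufs7 and Atp5j2.

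Complex I genes were all read, 36 of 36 at 1 TPM or more in both libraries. The N module, where NADH is oxidised, had a median of 34.9 and 37.7 TPM over the 8 genes listed under it here. Ndufv1, which carries the NADH site, stood at 40.7 TPM in replicate 1 and 42.0 in replicate 2, and Ndufv2, its iron-sulfur partner, at 49.4 and 45.5. Ndufs1, the large iron-sulfur subunit, was lower at 25.9 and 33.7 TPM. By gene TPM, Ndufv1 and Ndufv2 thus lay above Ndufs1 in both libraries, with no overlap. This order depends on the measure. A protein-coding model of 5 exons and 759 nt held 48.6% and 42.2% of Ndufv1 TPM. Without length correction Ndufs1 was the highest of these genes in each library, with 153 and 141 CPM. Ndufv1 then had 95.5 and 93.6 CPM and Ndufv2 147 and 123. Ndufs4, an accessory subunit, had 14.1 and 16.3 TPM, and Ndufs6 had 29.2 and 20.9.

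The Q module passes electrons to coenzyme Q, and the 5 genes listed under it here had medians of 25.1 and 22.7 TPM. Ndufs8, an iron-sulfur subunit, was at 10.4 and 10.3 TPM. Ndufs3 had 16.2 and 22.7 TPM and Ndufs7, the subunit of the last iron-sulfur cluster, 25.1 and 22.3. Ndufa5, an accessory subunit, had 90.1 and 60.5 TPM, and much of its TPM lay on a model not annotated as protein-coding, as described below.

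The membrane arm pumps protons. The 23 other nuclear complex I genes, which encode accessory subunits, were grouped under it here. This grouping is coarse, and not all of the 23 lie in the arm. Their medians were 25.3 and 22.8 TPM. Ndufa3 (54.7 TPM in both), Ndufc2 (58.4 and 46.4) and Ndufb10 (59.8 and 42.8) had the highest mean TPM of this group. In replicate 2, Ndufb8 lay above Ndufc2 and Ndufb10. On transcript models annotated as protein-coding, Ndufa3 had 31.1 and 40.0 TPM. Most other genes of the group lay between Ndufa8 (10.6 and 13.3 TPM) and Ndufb8 (39.9 and 54.3). Ndufa13, also known as GRIM-19, had 21.02 and 18.4 TPM, Ndufa9 26.5 and 27.4, and Ndufa1, an X-linked subunit, 15.1 and 14.4. At the low end of the group lay Ndufa11, with 2.46 and 2.14 TPM, and Ndufb4, with 2.59 and 3.53. Expected counts for Ndufa11 were 458 and 1023, on a model of 2661 nt. Without length correction it had 16.3 and 12.2 CPM (counts scaled to the library total), above Ndufa1 with 8.38 and 7.27. The median of the group was 26.0 and 22.7 CPM, so Ndufa11 stayed in its lower part. Ndufab1, the mitochondrial acyl carrier protein, had 27.1 and 9.96 TPM and expected counts of 922 and 1795. The transcript model with the largest share of its TPM was different in each library.

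Complex II, succinate dehydrogenase, has no mitochondrially encoded subunit, and its 4 genes were all read. Sdha, the flavoprotein, stood at 77.1 and 65.5 TPM (71.3 ± 8.26, n = 2) and Sdhb at 25.2 and 25.6 (25.4 ± 0.276). Of the anchors, Sdhd had 34.1 and 36.8 TPM and Sdhc 11.8 and 15.97. The order Sdha, Sdhd, Sdhb, Sdhc was the same in both libraries. By transcript models annotated as protein-coding, Sdha was lower, with 40.7 and 46.9 TPM.

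In complex III, Uqcrb, a small coenzyme Q-binding subunit, stood apart at 209 and 208 TPM (209 ± 1.04, n = 2). Uqcrh, the hinge protein, followed with 73.8 and 78.4 TPM. The large core proteins Uqcrc1 (38.1 and 38.8 TPM) and Uqcrc2 (36.6 and 44.4) were close to each other by gene TPM. By transcript models annotated as protein-coding, Uqcrc1 had 37.9 and 37.5 TPM and Uqcrc2 26.5 and 28.1. The Uqcrc1 value includes a model of 5 exons and 580 nt with 9.09 and 5.48 TPM. A Uqcrc2 model of 456 nt, with 7.38 and 12.9 TPM, had no GENCODE M21 annotation and was left out. The 13-exon model of Uqcrc1 had 27.9 and 32.0 TPM and the 14-exon model of Uqcrc2 26.5 and 28.1, so these were close. The catalytic subunits were lower: Uqcrfs1, the Rieske iron-sulfur protein, had 24.7 and 20.4 TPM and Cyc1, cytochrome c1, 16.8 and 19.9. The small subunits Uqcr11 and Uqcr10 had 38.7 and 31.3, and 24.3 and 27.2 TPM. Uqcrq was the lowest with 11.2 and 8.75 TPM. Uqcrb lay above every other complex III gene in both libraries, and its pseudogene copies held at most 1.91% of the counts of any pair.

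Complex IV is cytochrome c oxidase, and its general subunits were among the highest of all members. Cox6c had 189 TPM in replicate 1 and 158 in replicate 2, Cox6b1 114 and 105, and Cox4i1, the general form of subunit 4, 103 and 87.0. Ndufa4, first assigned to complex I and now placed with complex IV, had 136 and 93.0 TPM. Cox7b had 83.8 and 74.9 TPM, Cox8a 81.0 and 86.03, and Cox7c 108 and 78.3. A second tier of general subunits lay several-fold lower. Cox5a, which pairs with subunit 4, was at 16.9 and 23.2 TPM, Cox6a1 had 19.9 and 17.7, and Cox7a2 had 17.2 and 21.8. Cox5b, subunit 5B, differed between libraries, with 158 TPM in replicate 1 and 72.4 in replicate 2.

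Paralog choice in complex IV was nearly one-sided, with 1 exception. Cox4i2, the lung form of subunit 4, had 22 and 84 expected counts, 0.538% and 0.934% of the set's TPM. Cox6a2, the heart and muscle form of subunit 6A, had 24 and 22 counts, 3.44% and 1.39% of its set. The muscle forms Cox7a1 and Cox8b, Cox8c, Cox7b2 and Ndufa4l2 had 0 counts in both libraries. A count of 0 allows up to 3 counts, or 0.107 CPM in replicate 1 and 0.0357 CPM in replicate 2 (counting error only).

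The exception was Cox6b2, known as the testis form of subunit 6B. It had 284 and 777 expected counts, 15.6 and 14.1 TPM (14.8 ± 1.05, n = 2), beside Cox6b1 at 114 and 105 TPM. Cox6b2 thus held 12.02% and 11.8% of the TPM of the pair, far more than any other tissue paralog held of its set. The gene lies at chr7:4751792-4753094 (GRCm38), and 89.2% and 96.0% of its TPM lay on protein-coding models. Of 6 testis germ cell markers, 5 had 0 counts in both libraries, among them Prm1, Prm2 and Tnp1, and Ddx4 had 0.27 and 0.81 TPM. Striated muscle markers had 0 counts in both libraries for 5 of 7 genes, and their summed level was 0.89 and 0.28 TPM. Brown fat markers were at 0 for 3 of 3 genes, and pericyte and stroma markers for 3 of 4, the other being Pdgfrb with 3.28 and 4.47 TPM.

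Of the remaining sets, the subunit 7A family was led by Cox7a2l, a factor that joins complexes III and IV in supercomplexes and is known in a shortened form in C57BL/6 mice, with 41.8 and 59.2 TPM. It held 70.9% and 73.1% of the set, and Cox7a2 held 29.1% and 26.9%. The c ring of ATP synthase is 1 protein made from 3 genes with different import sequences, and all 3 were read. Atp5g2 led with 65.9 and 59.2 TPM, 52.7% and 49.7% of the set. Atp5g1 had 24.2% and 20.5% and Atp5g3 23.0% and 29.8%, so that the order of these genes turned between libraries.

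**Figure D3:**
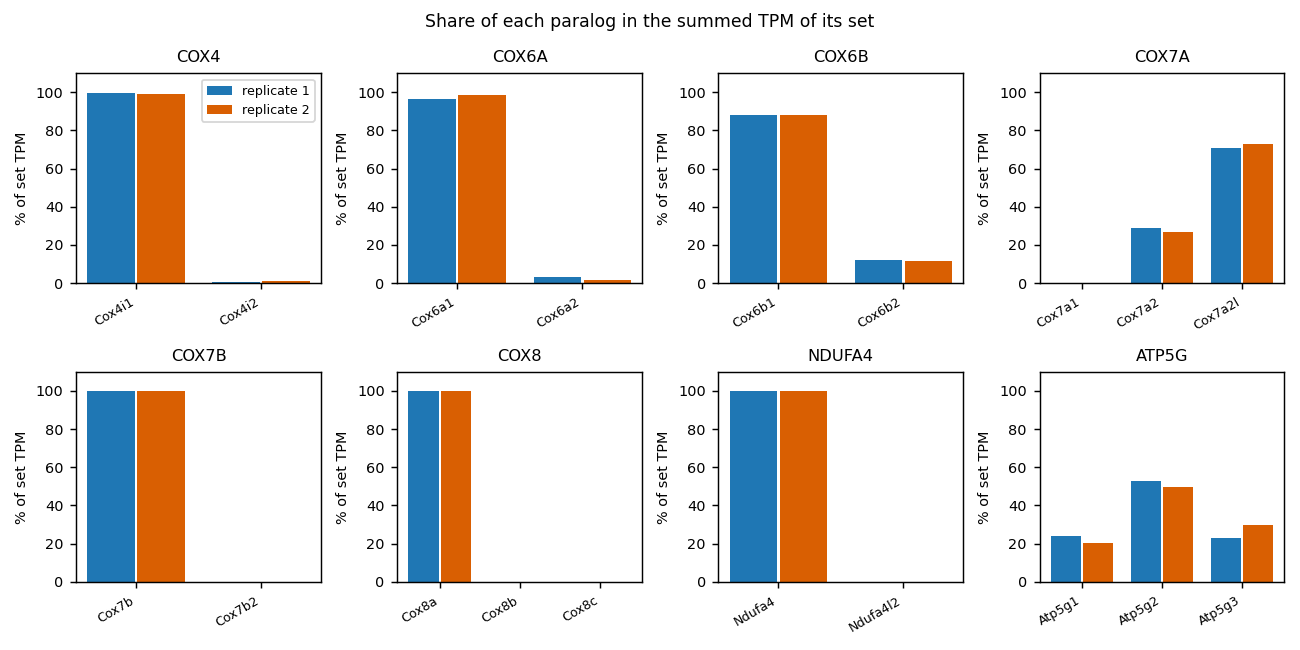
Share of each paralog in the summed TPM of its set (percent, bars from 0) in replicate 1 and replicate 2. General forms hold nearly all of each complex IV set except that Cox6b2 holds 12.02% and 11.8%, and that Cox7a2l holds most of the 7A set; the 3 c ring genes all have visible shares.

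In complex V, Atp5b, the catalytic beta subunit, was the highest of all members with 506 TPM in replicate 1 and 502 in replicate 2 (504 ± 2.71, n = 2). Atp5a1, the alpha subunit that alternates with beta in equal number, had 116 and 135 TPM, and the shaft subunit Atp5c1 95.2 and 99.1. Among the small F1 subunits, Atp5e had 65.6 and 56.0 TPM and Atp5d 12.5 and 11.6. In the peripheral stalk and membrane part, Atp5h (141 and 116 TPM) and Atp5mpl (114 and 101) led. Atp5f1, the stalk subunit b, had 94.4 and 91.4 TPM, Atp5j 77.4 and 64.6, Atp5o, the subunit that ties the stalk to F1, 38.2 and 46.6, and Atp5j2 28.3 and 27.7. Atp5l was lowest with 3.80 and 2.03. Atp5s, a related coupling factor that is not a subunit, had 2.27 and 2.54 TPM.

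The gap between Atp5b and Atp5a1 was not seen on protein-coding transcript models. Of Atp5b TPM, 22.8% and 24.2% lay on its protein-coding model of 10 exons and 1916 nt, although that model held 69.1% and 69.6% of the gene's counts. The leading model by TPM was a processed transcript (a model with no annotated coding sequence) of 3 exons and 478 nt with 48.0% and 41.8%, and another of 2 exons and 343 nt had 27.2% and 30.02%. On protein-coding models alone, Atp5b had 115 and 121 TPM (118 ± 4.27, n = 2) and Atp5a1 114 and 133 TPM (124 ± 13.2). Both Atp5b values lay within the range of the Atp5a1 values, and the means differed by more than the SD of Atp5b and by less than that of Atp5a1.

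Most members did not show such a split. Among the 78 members that reached 100 expected counts in both libraries (Atp5l did not), 53 had at least 90% of their TPM on protein-coding models in both, and the median share was 99.1% and 99.3%. The leading model was the same in both libraries for 74 members and was protein-coding in both for 73. Under 50% in both libraries were Atp5b, Cox7c (43.7% and 36.2%) and Ndufa5 (23.9% and 19.0%). For Ndufa5, a processed transcript of 453 nt held 76.1% and 80.4% of TPM, and for Cox7c, one of 315 nt held 56.3% and 63.8%.

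In 4 members the leading model changed with the library. Ndufs7 had 5.14% of its TPM on protein-coding models in replicate 1 and 50.02% in replicate 2, while the gene as a whole had 25.1 and 22.3 TPM. A processed transcript of 8 exons and 722 nt held 77.9% and 44.1%, and a protein-coding model of 8 exons and 758 nt 0.996% and 50.02%. Ndufab1 and Ndufc1 also changed their leading model, and their gene TPM was 27.1 and 9.96, and 10.3 and 4.97. Scaled counts of Ndufs7, Ndufab1 and Ndufc1 gave log2 ratios of replicate 2 over replicate 1 of -0.26, -0.61 and -0.37.

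**Figure D4:**
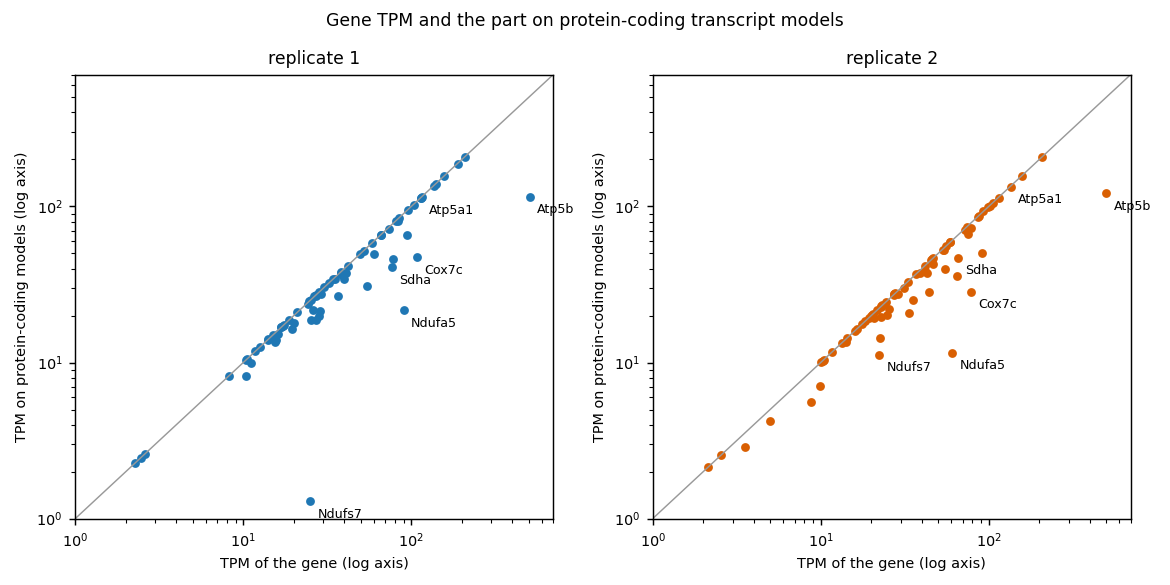
TPM of members with enough counts (x, log axis) against the part on protein-coding transcript models (y, log axis) in replicate 1 and replicate 2, with the line of equality. Most points lie on or near the line; Atp5b falls to 115 and 121 TPM, near Atp5a1, and Ndufa5, Cox7c and Ndufs7 lie below the line.

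Low values of 2 members stood beside near-identical pseudogenes. Atp5l (chr9:44912557-44920742, GRCm38) had 85.8 and 122 expected counts, while the processed pseudogene Gm10221 (chr5:24581554-24581862), identical to it over 309 nt, had 1128 and 2426. Gm10221 thus held 92.9% and 95.2% of the counts of the pair. Ndufb4 had 149 and 463 expected counts and its copy Ndufb4c (chr15:73809507-73809896), identical over 390 nt, 895 and 2531, or 85.7% and 84.5% of the pair. With the TPM of all their copies added, Atp5l stood at 75.5 and 59.2 TPM and Ndufb4 at 68.9 and 72.2, both within the range of their complexes. Reads over identical bases cannot be told apart, so the levels of Atp5l and Ndufb4 are uncertain.

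Copies held smaller shares beside the other members. A pseudogene copy of at least 90% identity over at least 200 nt was found for 28 members and none for the other 58. Summed over its copies, the pseudogene share passed 10% in both libraries for 4 members: Atp5l, Ndufb4, Ndufa12 and Ndufab1. Gm15920 held 13.1% and 20.3% beside Ndufa12, Gm10250 8.73% and 10.5% beside Atp5h, and Gm10175 7.07% and 19.1% beside Atp5g2. Other annotated genes overlapped 34 members, 27 of them on the opposite strand, and whether the counting used strand is not given in the sources used here. The overlap of Atp5j with Gabpa, the gene of the GABP alpha chain, spans 701 nt on opposite strands. Cox4i1 is overlapped on the same strand by Gm20388, a model with 2180 and 5394 expected counts.

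**Figure D5:**
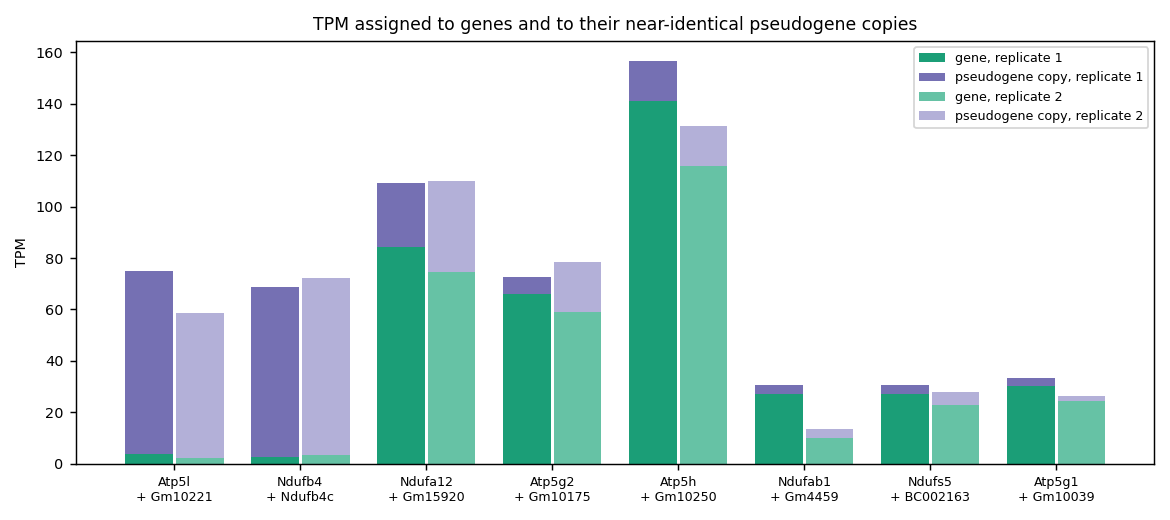
TPM (stacked bars from 0) assigned to 8 genes and to 1 pseudogene copy of each, in replicate 1 (dark) and replicate 2 (light). The copy makes up nearly all of the bar for Atp5l and Ndufb4 and a minor part for the others.

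Members were slightly lower in replicate 2, the more deeply sequenced library. Scaled counts (CPM with a TMM factor) gave a median log2 ratio of replicate 2 over replicate 1 of -0.20 over the 81 members whose mean expected count reached 10, beside 0.02 over 12443 nuclear protein-coding genes. By complex the medians were -0.21 for I, -0.08 for II, -0.07 for III, -0.38 for IV and -0.29 for V. No member was at least 2-fold higher in replicate 2 (background 9.51%), and 3 were at least 2-fold lower (background 5.26%). These backgrounds include many genes of low level. Among nuclear protein-coding genes at 1 TPM or more in both libraries, 0.669% were 2-fold higher and 0.779% 2-fold lower, beside 0 and 2 of the 79 members at that level. The 3 members were Cox5b, Cox6a2 and Atp5l, with log2 ratios of -1.35, -1.67 and -1.06. The list depends on the setting: by deposited TPM it held Cox5b, Cox6a2, Ndufab1 and Ndufc1, and with a mean count of at least 100 it held Cox5b and Atp5l. Cox6a2 rests on 24 and 22 counts and Atp5l shares sequence with Gm10221, while Cox5b had 7790 and 9126 counts. One protein-coding model of 865 nt held 98.9% and 95.7% of Cox5b TPM. The other general complex IV genes had log2 ratios from -0.77 (Cox7c) to 0.28 (Cox5a).

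The ratio was read by transcript length as well. Members under 500 nt had a median log2 ratio of -0.28 (11 genes), those from 500 to 1000 nt -0.29 (46 genes) and those of 1000 nt or more -0.08 (24 genes). All nuclear protein-coding genes had -0.07, -0.10 and 0.03 in the same length classes. The stated size ranges of the libraries differ, and their part in the shift was not tested. By deposited TPM in place of scaled counts, the medians were -0.01 for members and 0.22 for all genes. Relative to all genes, members were therefore lower by 0.22 with scaled counts and by 0.24 with TPM.

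The 13 subunits encoded in mitochondrial DNA had median TPM of 290 and 345, against 28.2 and 27.6 for the 86 nuclear genes. The highest were mt-Atp8 (6229 and 4823 TPM), mt-Co1 (3388 and 3593) and mt-Nd1 (685 and 858), and the lowest mt-Atp6 (34.4 and 60.8) and mt-Nd6 (32.4 and 47.0). The ranges overlapped: the nuclear gene Atp5b, at 506 and 502 TPM, lay above the mitochondrial median. Without length correction mt-Atp8 had 431 and 351 CPM, below mt-Co1 (12201 and 11181) and mt-Nd1 (1377 and 1501). The first place of mt-Atp8 thus holds only per length. By posterior mean TPM, the other deposited estimate, mt-Atp6 had 352 and 318, so its place depends on the estimate. At least 2-fold apart between libraries were mt-Co2, with 63.0 and 236 TPM, mt-Nd3, with 632 and 262, and mt-Nd4l, with 290 and 39.1. By posterior mean TPM mt-Co2 had 577 and 644 and was not 2-fold apart. Expected counts of mt-Co2, mt-Nd3 and mt-Nd4l were not whole numbers, as for genes whose reads were divided among entries.

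Genes that build and feed the chain lay lower than its subunits. Assembly factors of complex I had a median of 4.64 and 4.79 TPM with 13 of 14 at 1 TPM or more in both; Ndufaf2 (19.1 and 12.6), Timmdc1 and Foxred1 led and Ndufaf3 and Nubpl (0.94 and 0.98) were lowest. Those of complex II had 3.26 and 3.21 TPM (3 of 4), of complex III 9.57 and 9.20 (5 of 6), of complex IV 6.50 and 7.95 (20 of 21) and of complex V 7.24 and 10.9 (3 of 3). Cox17, the copper chaperone of complex IV, was the highest with 72.4 and 59.9 TPM. Lyrm7, which matures the Rieske protein of complex III, had 22 and 409 expected counts. Coa6 had 10.6 and 5.84 TPM and was 2-fold lower in replicate 2 by scaled counts (440 and 637 expected counts), and Pet117 had 146 expected counts in replicate 1 and 0 in replicate 2.

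Electron carriers and related dehydrogenases had medians of 9.92 and 10.9 TPM over 8 genes. Etfb, an electron transfer flavoprotein, led with 97.0 and 102 TPM, and Cycs, somatic cytochrome c, had 26.5 and 28.3, while the testis form Cyct had 0 counts in both. All 11 coenzyme Q synthesis genes were read, with medians of 3.96 and 4.61 TPM. For mitochondrial DNA upkeep and transcription, 11 of 11 genes were at 1 TPM or more, and Tfam, the DNA packaging and transcription factor, was the highest with 31.9 and 32.6 TPM.

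Known nuclear regulators of respiratory genes had medians of 10.5 and 11.99 TPM, with 8 of 10 at 1 TPM or more in both libraries. Yy1 (22.9 and 23.4 TPM), Hcfc1 (15.2 and 20.4) and Gabpa (17.99 and 16.7) were the highest. The coactivators Ppargc1b (0.95 and 0.93 TPM) and Ppargc1a (0.06 and 0.08) were the lowest. Ppargc1a, known from muscle and brown fat, had 12 and 98 expected counts.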

How the data were processed

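For each library the authors deposited gene-level and transcript-level tables, built on mm10 with the GENCODE M4 annotation, per the readmes. The aligner and quantifier are not given in the sources used here. The deposited expected count is an estimated number of reads per gene or transcript, per the file headers. The authors also gave TPM, posterior mean TPM and FPKM, which carry a length correction. Deposited interval bounds were not used. Symbols came from GENCODE M21 (GRCm38, the same assembly), matched for 42462 of 43346 genes. Unmatched genes held 0.277% of counts in each library.

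Rounded expected counts were scaled by TMM (edgeR 4.0.16, R 4.3.3), with DESeq2 1.42.0 size factors as an alternative. Log2 ratios used a prior count of 0.5. Python 3.11.15 with pandas 2.3.3 and matplotlib 3.10.9 did the rest. Simplified forms of the ratio and motif steps were run on simulated data, which does not test the steps as used here. Members, lists and tests were chosen with earlier results of these data known. Any member could be named; of other lists, the 3 highest, the 2 lowest and any gene 2-fold apart. Alternatives were other scalings, units, minimums, models, motif windows and each library alone. One member was counted in totals and medians but is not reported here by itself.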

Additional observations from a re-analysis of the deposited data

How the results depend on the processing

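No paired analysis was possible because there was 1 group. Medians for complexes I, II, III, IV and V in turn were 118, 146, 164, 93.2 and 297 on a TPM scale of nuclear protein-coding genes alone, 62.0, 76.4, 85.7, 48.4 and 156 as FPKM, and 35.0, 85.6, 60.9, 24.0 and 55.7 as CPM. Rescaling and FPKM kept the order of complexes. Without length correction complex II came first. Chosen after seeing the data, protein-coding models gave 20.4, 27.9, 27.3 and 74.6 for I to IV. The value for IV covers the 12 genes that reached 100 counts, whose full TPM had a median of 85.1. Also chosen then, pseudogene copies raised V to 68.0, and leaving out tissue paralogs raised IV to 90.9. A minimum count of 10 gave 78.0 for IV. Single-library medians ranged from 22.9 to 26.2 for I, 29.7 to 31.2 for II, 31.3 to 36.6 for III, 17.2 to 21.8 for IV and 57.6 to 65.7 for V. Posterior mean TPM gave shares of 87.9% for Cox6b1, 99.97% for Cox7b, 99.9% for Cox8a and 99.99% for Ndufa4. Counts gave 89.4% for Cox6b1 and 80.4% for Cox7a2l. Members at 1 TPM numbered 79 to 81. The median log2 ratio was -0.014 by TPM and between -0.20 and -0.16 under the other settings. The longer NRF1 motif GCATGCGCA stood in 7.25% of members, 1.72% of all genes and 2.23% of protein-coding genes, and YY1 letters before the start in 1.45% of members. With 2 libraries of 1 donor label, no value here has a test. Low counts limit Cox4i2 and Cox6a2.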

Other observations

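A subunit gene, an inhibitor gene and an assembly gene that the symbol rule did not take in were also read, by names the annotation uses. Usmg5, a small membrane subunit of ATP synthase, stood at 89.4 TPM in replicate 1 and 75.7 in replicate 2 (82.6 ± 9.73, SD, n = 2). Atpif1, the inhibitor of ATP hydrolysis by the synthase, stood at 427 and 384 TPM (405 ± 30.5). By gene TPM it was below Atp5b alone among the genes of the rule. On protein-coding models Atp5b had 115 and 121 TPM, and the models of Atpif1 were not read. Dmac2, a complex I assembly protein, stood at 7.33 and 6.75 TPM (7.04 ± 0.41). These 3 genes were listed for their role, not for their level.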
